A study of Mus musculus with 20 samples.

Results

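Between day 12 and day 14 of neural differentiation, the last step of the course, 1502 of 13609 genes changed 2-fold or more in at least 1 of the 2 mouse embryonic stem cell lines examined, a control line and a line in which HPRT was knocked down. Of these, 93 rose and 106 fell in both lines, 1269 changed in 1 line only, and 34 changed in opposite directions. The genes that rose together were led by extracellular matrix genes of mesenchymal cells, and those that fell together by genes of the pluripotent state. Of 22 muscle genes 21 rose in the control; in the knockdown 13 of the 22 were below the level of the filter. Of 31 genes of the oxygen response and glycolysis, 8 rose in the knockdown and none in the control. Over all genes 3.75% rose in the control and 3.23% in the knockdown. The myelin genes Mag and Mobp fell in the control and rose in the knockdown.

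The genes were chosen by size alone, from the difference between the day 14 and the day 12 library of each line. Every line and day had 1 library, made from pooled RNA, so no change has a replicate check, an error or a p-value, and the counts describe these 4 libraries. "Rose" and "fell" below mean a change of 2-fold or more, which is 1 on the log2 scale, and for smaller changes the value alone is given. The change of a line is itself what chose the genes, and is given as a description.

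Both lines were ESD3 cells, an embryonic stem cell line of mouse strain 129s2/SvPas. They had been infected with a viral vector and selected with puromycin, and each had been kept on primary mouse embryo fibroblast feeders before differentiation. The control carried a short hairpin RNA against luciferase, a sequence with no mouse counterpart, and the knockdown carried a hairpin against HPRT, the purine salvage enzyme. Spherical neural masses, which are floating aggregates of neural precursors, were taken from both lines toward dopaminergic neurons. Neither line was made more than once here, so the hairpin and anything else that differs between the lines cannot be told apart.

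Pluripotent cells are held by a network of transcription factors, among them Pou5f1 (Oct4), Nanog, Esrrb and Klf2, which is switched off as cells differentiate. Mesenchymal cells build a matrix of fibrillar collagens that is crosslinked by lysyl oxidases and decorated with small proteoglycans. Oligodendrocytes wrap axons in myelin, whose proteins include Mbp and Mag, and their identity rests on Sox10 and Olig2. Cells short of oxygen raise glycolytic enzymes, the lactate exporter Slc16a3 and the vessel growth factor Vegfa.

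Promoter windows were read for a gene of each main group, because the genes of a group moved together. Shown are Col1a2 and Postn, which rose in both lines, Pou5f1, which fell in both lines, and Acta1, which rose in the control line only. The windows run from 250 bases before to 50 bases after the transcription start in RefSeq (mouse GRCm38.p6) and are written 5′ to 3′ on the strand of the gene. They lie at chr6:4505368-4505667 (plus strand), chr3:54359017-54359316 (plus strand), chr17:35505782-35506081 (plus strand) and chr8:123894726-123895025 (minus strand), in that order. Capitals mark matches on either strand to the TATA box TATAAA, the CCAAT box CCAAT, the GC box GGGCGG and TTTGAA, so that a match on the opposite strand shows as its reverse complement.
Col1a2: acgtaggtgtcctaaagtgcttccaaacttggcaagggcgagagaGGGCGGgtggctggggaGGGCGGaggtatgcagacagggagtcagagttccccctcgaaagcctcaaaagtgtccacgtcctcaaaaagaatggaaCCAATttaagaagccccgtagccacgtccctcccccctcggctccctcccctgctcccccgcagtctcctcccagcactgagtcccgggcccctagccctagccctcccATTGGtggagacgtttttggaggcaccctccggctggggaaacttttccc
Postn: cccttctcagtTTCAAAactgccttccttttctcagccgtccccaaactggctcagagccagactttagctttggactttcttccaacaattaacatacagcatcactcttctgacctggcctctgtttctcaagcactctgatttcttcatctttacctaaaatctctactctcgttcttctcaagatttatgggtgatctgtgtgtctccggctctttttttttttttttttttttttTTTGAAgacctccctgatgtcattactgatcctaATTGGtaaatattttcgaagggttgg
Pou5f1: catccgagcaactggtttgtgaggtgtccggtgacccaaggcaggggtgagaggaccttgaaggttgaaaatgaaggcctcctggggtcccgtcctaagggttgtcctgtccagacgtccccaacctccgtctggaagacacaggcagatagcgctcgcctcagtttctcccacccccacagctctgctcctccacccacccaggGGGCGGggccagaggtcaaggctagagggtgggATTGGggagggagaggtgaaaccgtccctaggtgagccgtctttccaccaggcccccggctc
Acta1: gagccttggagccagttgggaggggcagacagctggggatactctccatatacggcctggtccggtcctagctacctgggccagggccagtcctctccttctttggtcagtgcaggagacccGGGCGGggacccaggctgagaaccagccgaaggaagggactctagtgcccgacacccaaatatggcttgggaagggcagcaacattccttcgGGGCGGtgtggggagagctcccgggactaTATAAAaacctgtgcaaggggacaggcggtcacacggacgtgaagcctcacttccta

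Values of a gene are given below on a log2 scale on which the control library of day 12 is 0. A value of 1 is therefore 2-fold above that library, and the value of the knockdown on day 14 adds the difference between the lines on day 12 to the step of the knockdown line. The deposited values hold ratios and no levels, so levels of different genes are not compared. A gene entered when its typical log2 normalized count over the tables was at least 4, which is 16 normalized reads, and a stricter set at 8 or more, 256 normalized reads, held 8248 genes. If normalized reads equalled reads, counting alone would give the log2 ratio of a pair of libraries an SD of 0.51 at 16 reads and of 0.13 at 256. The depth of each library is otherwise unknown, as the study gives only an average. The size factor of the control library of day 12 was 1.14 times that of day 14, and that of the knockdown library of day 14 was 1.12 times that of day 12.

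The targeted gene was low throughout. Hprt (Gene ID 15452, NCBIM37 chromosome X, 50341314 to 50374836) stood at 0 and 0.29 in the control libraries of days 12 and 14, and at -4.21 and -4.74 in those of the knockdown. The knockdown minus control difference was -4.21 on day 12 and -5.0 on day 14, and across the 10 days it lay between -5.0 and -2.53. Genes of several cell types passed the filter, which is set over all days and does not show presence on days 12 and 14. They were 46 of 48 pan-neuronal and 29 of 37 neural progenitor genes. Also passing were 45 of 45 fibroblast and mesenchyme genes and 22 of 29 muscle genes. In that order, 3, 8, 2 and 13 of them were below its level in the knockdown on days 12 and 14. In the control 4, 1, 1 and 0 were. In bulk RNA, fewer cells of a type and less RNA per cell cannot be told apart, which holds for every cell type gene below.

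In the control line 511 genes rose, 3.75% of those examined, and 429 fell, 3.15%. The corresponding numbers in the knockdown line were 439, or 3.23%, and 356, or 2.62%. These shares are the background for the counts of every list below. The median change over all genes was 0 in both lines, and changes ranged from -4.561 to 3.584 in the control and from -6.167 to 5.453 in the knockdown. The 93 genes that rose in both made up 18.2% of the control's risers and 21.2% of the knockdown's. The 106 that fell in both made up 24.7% of the control's fallers and 29.8% of the knockdown's. Of the shared genes, 25 risers and 23 fallers were in the stricter set, and 85 and 65 also passed the filter within the tables of days 12 and 14 alone. The steps of the lines share no library. Across genes, which are not independent, their changes correlated with r = 0.342 and rho = 0.381 (n = 13609), and with r = 0.503 and rho = 0.5 among the 8248 genes of higher count.

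**Figure D1:**
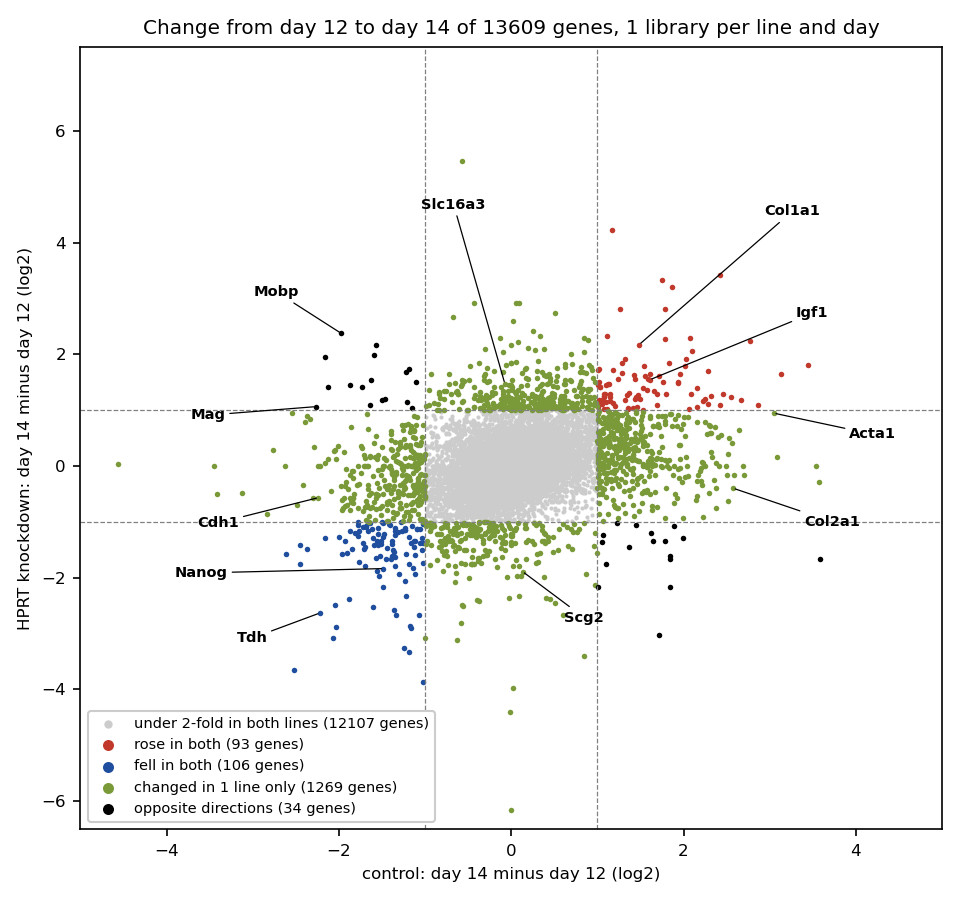
Change of each of 13609 genes from day 12 to day 14 in the control line (horizontal, log2) and in the HPRT knockdown line (vertical, log2), with dashed lines at a 2-fold change and colors for the 93 genes that rose in both, the 106 that fell in both, the 1269 changed in 1 line only and the 34 changed in opposite directions. Col1a1 and Igf1 sit at upper right, Tdh and Nanog at lower left, and Mag and Mobp at upper left.

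Genes near the threshold show how it divides them. Ccbe1 rose by 1.003 in the control and 1.058 in the knockdown and counts as shared, whereas Synj2, at 0.996 and 1.077, counts as a gene of the knockdown line only. Among the fallers Upp1, at -1.501 and -1.005, is shared and Eme1, at -1.026 and -0.995, is not. Many genes of 1 line only thus moved the same way in the other line: the 401 genes that rose in the control only had a median of 0.22 in the knockdown, and the 329 that rose in the knockdown only had a median of 0.20 in the control.

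Matrix genes led the shared rise. Col1a1 (Gene ID 12842, NCBIM37 chromosome 11, 94797538 to 94814356), the main chain of type I collagen, went from 0 to 1.49 in the control and from -1.54 to 0.64 in the knockdown, changes of 2.80-fold and 4.51-fold. Its partner chain Col1a2, whose promoter window is printed above, went from 0 to 1.42 and from -1.18 to 0.44. Postn (periostin, a matrix protein that binds collagen; NCBIM37 chromosome 3, 54165031 to 54194961) went from 0 to 1.61 and from -1.46 to 0.18. In each of the 3 genes the knockdown library of day 14 lay above the control of day 12 and below the control of day 14.

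The small proteoglycan Ogn (osteoglycin) went from 0 to 1.45 in the control and from -1.20 to 0.03 in the knockdown. Matn4, a matrilin of cartilage and other matrices, went from 0 to 1.96 and from -2.27 to -0.63. Fbln2 (fibulin 2, an elastic fiber protein) went from 0 to 1.15 and from 0.71 to 1.94, so that unlike the genes above it was higher in the knockdown than in the control on both days. The growth factor Igf1 rose by nearly the same amount in each line, 1.61 and 1.54, while the knockdown minus control difference was -3.02 on day 12 and -3.06 on day 14.

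Over the list of fibroblast and mesenchyme genes, 19 of 45 rose in the control and 23 of 45 in the knockdown, 13 of them in both, and none fell. The median change was 0.91 in the control and 1.0 in the knockdown, against 0 over all genes. S100a4, a calcium-binding protein of motile cells, went from 0 to 3.13 and from 2.78 to 4.42. Aspn (asporin, a small proteoglycan) went from 0 to 1.78 and from -3.63 to -1.35. The muscle-type tropomyosin Tpm2 rose by 1.96 in the control and changed by -0.03 in the knockdown. The list's median from day 10 to day 14 was 0.91 in the control and 0.80 in the knockdown. That span leaves out the day 12 libraries and shares those of day 14. Of the 93 shared risers, 29 had fallen 2-fold in the knockdown from day 10 to day 12 and 1 in the control. Over all genes 469 (3.45%) and 43 had fallen. The risers were chosen on the day 12 libraries, which that step shares. On day 14, 74 of the 93 in the control and 48 in the knockdown were 2-fold higher than on day 10. Over all genes 723 and 586 (4.31%) were higher. Fibroblast feeders of the same species had carried the stem cells, and the part of such cells in these values was not tested.

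Beside the matrix genes, the leading shared risers held genes of growth arrest, protein folding and cytokine signaling. Cdkn1a (p21, a Cdk inhibitor and p53 target) went from 0 to 1.19 in the control and from -0.87 to 0.85 in the knockdown. Hspb8, a small heat shock protein, went from 0 to 2.16 and from -0.23 to 1.18. Tnfrsf12a, the receptor of the cytokine TWEAK, went from 0 to 1.53 and from 0.97 to 2.36. Of 22 p53 targets, 2 rose in the control and 3 in the knockdown, Cdkn1a being the gene in both, and the medians were 0.26 and 0.55.

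Pluripotency genes led the shared fall. Pou5f1 (NCBIM37 chromosome 17, 35642982 to 35647721; promoter window above) went from 0 to -1.35 in the control and from -1.91 to -3.15 in the knockdown. Nanog went from 0 to -1.48 and from -2.46 to -4.29. Zfp42 (Rex1, a zinc finger protein of naive pluripotency) went from 0 to -1.85 and from -2.52 to -4.0. In all of these the knockdown library of day 14 was the lowest of the 4.

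Tdh, the threonine dehydrogenase on which mouse embryonic stem cells depend, fell by 2.22 in the control and by 2.63 in the knockdown. Utf1, a chromatin factor of embryonic stem cells, fell by 1.76 and 1.72. Tdgf1 (Cripto, the co-receptor of Nodal) fell by 1.52 and 1.61. The nuclear receptor Esrrb fell by 1.59 and 1.41, and Klf2 by 1.44 and 1.46. Further shared fallers were the RNA-binding protein gene L1td1 at -1.39 and -1.4, the ubiquitin ligase gene Trim71 at -1.39 and -1.34, and Trh, which encodes thyrotropin-releasing hormone, at -2.37 and -1.49. Among the 10 leading shared fallers, Trh had the widest gap between the lines.

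Of 36 pluripotency genes that passed the filter, 28 fell in the control and 20 in the knockdown, 18 of them in both, and none rose. The medians were -1.44 and -1.06, and 36 of 36 in the control and 34 of 36 in the knockdown were below 0. Prdm14, a regulator of naive pluripotency, went from 0 to -1.02 in the control and from -1.56 to -5.43 in the knockdown, where it stood 0.92 above its day 10 value on day 14. Eras, an embryonic stem cell Ras protein, went from 0 to -2.04 and from -2.67 to -5.16. Sox2, which neural progenitors also use, had values of 0 and -0.80 in the control and 1.05 and 0.74 in the knockdown, and thus neither fell 2-fold nor was low in the knockdown.

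The fall in the knockdown followed a rise of the same genes in the step before. The pluripotency list had a median change of 2.42 in the knockdown and 0.21 in the control from day 10 to day 12. Of the 106 shared fallers, 70 had risen 2-fold in the knockdown in that step and 2 in the control, where of all 13609 genes 561 (4.12%) and 211 (1.55%) had risen. The fallers were chosen on the day 12 libraries, which that step shares. From day 10 to day 14 the list stood 1.31 higher in the knockdown and changed by -1.21 in the control, and Pou5f1 changed by 2.00 and -1.21. Of the 106, 81 were 2-fold lower on day 14 than on day 10 in the control, against 22 in the knockdown, where 31 were higher. Over all genes 464 (3.41%) were lower in the control, and 425 (3.12%) were lower and 586 (4.31%) higher in the knockdown; this span shares the day 14 libraries with the choice. The part of the day 12 library in the knockdown's fall was not tested.

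**Figure D2:**
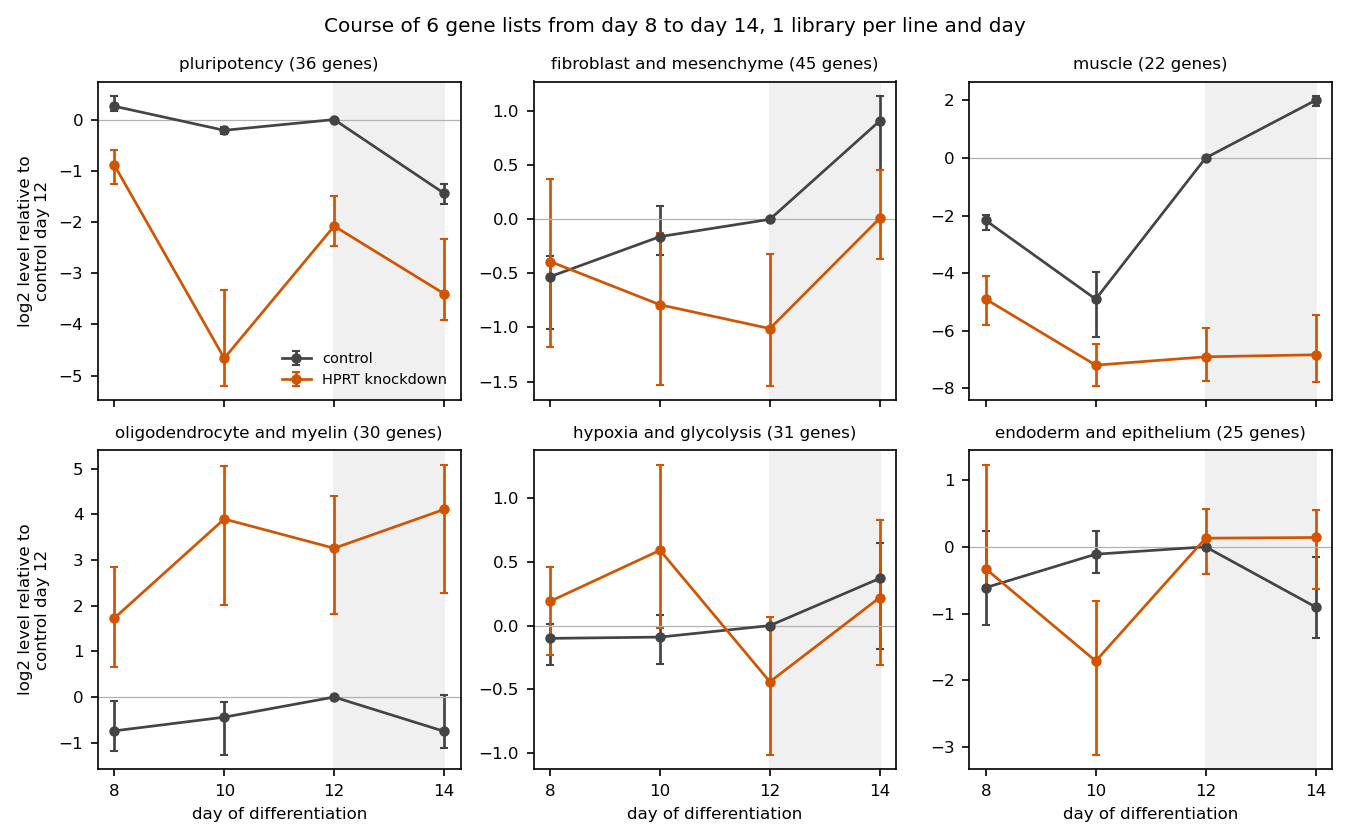
Median (points) and quartiles (bars) of the members of 6 gene lists on days 8 to 14 in the control (dark) and the HPRT knockdown (orange), in log2 units relative to the control library of day 12, with the last step shaded. Pluripotency genes fell in both lines in that step, after a rise in the knockdown from day 10 to day 12, and muscle genes rose in the control, while in the knockdown most of them were below the level of the filter.

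Muscle genes rose in the control. Of 22 skeletal and cardiac muscle genes that passed the filter, 21 rose in the control and 22 of 22 were above 0, with a median of 2.0. In the knockdown table of days 12 and 14, 13 of the 22 genes were below the level of the filter, against 0 in that of the control, so most knockdown values of this list rest on few reads, as do the counts of 6 genes that rose and 3 that fell there. Acta1 (skeletal muscle actin, NCBIM37 chromosome 8, 126415669 to 126418651; promoter window above) stood at 0 and 3.05 in the control and at -7.98 and -7.04 in the knockdown. Ckm, the creatine kinase of muscle, stood at 0 and 2.51 in the control and at -7.79 and -7.95 in the knockdown. Myl1, a myosin light chain, stood at 0 and 2.58 and at -8.51 and -8.67, and Tnnc2, a troponin, at 0 and 2.53 and at -8.09 and -7.60.

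Every knockdown value of these 4 genes lay over 7 log2 units below the control library of day 12. Ckm and Myl1 are the 2 muscle genes with equal reads in both knockdown libraries, so that their difference is the ratio of the size factors. The giant sarcomere protein Ttn, the muscle gene with a count in the stricter set, rose by 2.02 in the control and changed by -0.20 in the knockdown. Muscle genes had moved in the control before: their median change from day 10 to day 12 was 4.90, and Ttn had risen by 7.21 from day 4 to day 6 and fallen by 4.42 from day 6 to day 8. Day 6 is a day that the study left out of its pathway analysis as discrepant. The median from day 10 to day 14 was 6.92 in the control.

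Other genes that rose in the control only included Col2a1 of cartilage and several genes also used in muscle. Cartilage genes at large were not confined to the control. In a cartilage matrix list, made after the values were seen, 9 of 15 rose in the control and 7 in the knockdown. Of these, 6 rose in both lines. Col2a1, the collagen of cartilage (NCBIM37 chromosome 15, 97806033 to 97835155), stood at 0 and 2.58 in the control and at 0.65 and 0.25 in the knockdown. Cryab (alpha-B crystallin, a chaperone abundant in muscle and lens) rose by 2.38 in the control against 0.05 in the knockdown. Dmpk, the myotonic dystrophy kinase, rose by 1.96 against 0.38. Cdon, a cell surface co-receptor of hedgehog that also acts in muscle formation, rose by 1.81 against 0.09. The Wnt receptor Fzd9 rose by 2.33 against 0.15, and Cap2, an actin-binding protein, by 1.93 against -0.06.

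Some astrocyte genes followed this pattern. Of 39 astrocyte and radial glia genes, 5 rose in the control, and 3 rose and 1 fell in the knockdown. The medians were 0.44 and 0.13. Nfix and Nfib, transcription factors of gliogenesis, rose by 1.4 and 1.22 in the control and changed by -0.06 and 0.06 in the knockdown. Gjb6 (connexin 30 of astrocytes) rose by 2.43 against 0.56. The receptor Gpr37l1 rose in both lines, from 0 to 1.08 and from 6.47 to 7.73.

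Epithelial and endodermal genes fell mostly in the control. Of 25 such genes, 12 fell and 1 rose in the control, where the median was -0.90, and 1 fell and 1 rose in the knockdown, where it was -0.08. Cdh1 (E-cadherin, the adhesion molecule of epithelia and embryonic stem cells; NCBIM37 chromosome 8, 109127251 to 109194146) stood at 0 and -2.24 in the control and at -1.93 and -2.50 in the knockdown. Epcam, another epithelial adhesion molecule, stood at 0 and -1.74 and at -2.08 and -1.73. For both genes the control came down in this step toward the level the knockdown had on day 12. Amn and Cubn, which form the receptor complex of visceral endoderm, changed by -2.24 and -1.83 in the control and by -0.01 and -0.50 in the knockdown, after both had risen in the knockdown from day 10 to day 12, by 4.19 and 4.45.

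Several transcription factors and neural genes fell in the control only. T (Brachyury, the mesoderm factor) changed by -2.09 in the control and -0.45 in the knockdown, and Nr6a1, an orphan nuclear receptor of embryo and germ cells, by -1.45 and -0.41. Nefm, the medium neurofilament, stood at 0 and -1.84 in the control and at -2.44 and -3.01 in the knockdown. The syntaxin gene Stx3 fell by 1.39 against -0.14. The 306 genes of this class had a median knockdown minus control difference of -1.20 on day 12 and 0 on day 14. An upward shift of this difference follows from how the class was chosen.

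Of 19 endothelial genes, 7 fell and 2 rose in the control, and 1 fell and 1 rose in the knockdown. Pecam1 (CD31) changed by -1.57 and -0.50, and Nos3, the endothelial nitric oxide synthase, by -1.89 and -0.42. Vwf, the von Willebrand factor, fell by 1.22 in the control and rose by 1.68 in the knockdown. Of 14 choroid plexus and ependyma genes 4 fell in the control and 1 in the knockdown, among them in the control Foxj1, the regulator of motile cilia, at -1.5 against 0.33, and Otx2 at -1.29 against 0.34.

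Some genes of the oxygen response rose in the knockdown. Of 31 hypoxia and glycolysis genes, 8 rose in the knockdown and none in the control, none fell, and the medians were 0.66 and 0.37. In the knockdown 30 of 31 were above 0, against 20 of 31 in the control. Slc16a3, which exports lactate (NCBIM37 chromosome 11, 120809794 to 120822182), stood at 0 and -0.07 in the control and at -1.34 and 0.13 in the knockdown. Vegfa stood at 0 and 0.90 and at -0.09 and 1.72. Bnip3, a mitophagy receptor, stood at 0 and 0.94 and at -0.17 and 1.54, and P4ha2, a collagen prolyl hydroxylase, at 0 and 0.42 and at -0.25 and 1.22.

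Vegfa and Bnip3 thus came near the 2-fold threshold in the control as well, whereas Slc16a3 and P4ha2 did not. The step before had gone the other way in the knockdown, with a list median of -1.21 from day 10 to day 12, against 0.09 in the control. From day 10 to day 14 the median was -0.37 in the knockdown and 0.33 in the control, and in the knockdown Slc16a3 fell by 1.18 on the log2 scale and Bnip3 changed by -0.68. Among the 329 genes that rose in the knockdown only, 112 had fallen 2-fold in that line from day 10 to day 12 and 7 had risen, where of all genes 469 (3.45%) had fallen and 561 had risen. Here too the genes were chosen on the day 12 library that the step shares. Cholesterol synthesis genes had a similar course, with 1 of 25 (Insig1, at 0.38 and 1.14) rising in the knockdown, medians of 0.17 and 0.42, and a knockdown median of -1.22 in the step before. From day 10 to day 14 their knockdown median was -0.79, and Insig1 changed by -0.19.

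The other leading genes of this class came from several pathways. Cdo1, the cysteine dioxygenase, changed by 0.53 in the control and 1.61 in the knockdown, and Acss2, an acetyl-CoA synthetase, by 0.49 and 1.44. Col8a1, a short-chain collagen, changed by 0.30 and 1.58. Mmd2 changed by 0.30 and 1.70, and the receptor gene Tnfrsf19 by 0.53 and 1.42. Of 41 unfolded protein response and ATF4 target genes, 3 rose in the knockdown and none in the control: the growth factor Gdf15 at 2.73 against 0.51, the transcription factor Ddit3 (CHOP) at 1.52 against 0.69, and the pseudokinase Trib3 at 1.38 against 0.91. The medians of that list were 0.20 and 0.09.

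Genes that fell in the knockdown only included neuronal genes. Scg2 (secretogranin II of dense-core vesicles; NCBIM37 chromosome 1, 79431244 to 79436665) stood at 0 and 0.13 in the control and at 0.68 and -1.21 in the knockdown. Unc5d, a netrin receptor family member, stood at 0 and -0.16 and at 0.03 and -1.77. Mapk8ip2, a JNK scaffold, stood at 0 and -0.55 and at -0.50 and -2.01. In these 3 genes the knockdown minus control difference lay between -0.50 and 0.68 on day 12 and between -1.58 and -1.32 on day 14. A downward shift of this difference follows from how the genes were chosen.

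Smpd3, a neutral sphingomyelinase, changed by -0.10 in the control and -1.36 in the knockdown, and Etv5, an ETS factor downstream of FGF signaling, by -0.51 and -1.23. Pop1, a subunit of RNase P and RNase MRP, changed by -0.48 and -1.23. Wdr46, a nucleolar protein of ribosomal RNA processing, changed by -0.47 and -1.22, and the chromatin protein gene Hmgb3 by -0.54 and -1.29. Of the 8 leading genes in this class, 5 also had a change of -0.47 or lower in the control.

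Many myelin genes went opposite ways. Mag (a myelin adhesion molecule; NCBIM37 chromosome 7, 31684202 to 31699851) stood at 0 and -2.27 in the control and at 4.31 and 5.37 in the knockdown. Mobp, the myelin-associated oligodendrocyte basic protein, stood at 0 and -1.97 and at 0.20 and 2.57. The knockdown minus control difference of Mag over days 10, 12 and 14 was 9.22, 4.31 and 7.67, and that of Mobp 2.05, 0.20 and 4.48. In the control Mag had risen by 4.06 from day 10 to day 12, a step that shares the day 12 library, and on day 14 it stood 1.79 above day 10.

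Of 30 oligodendrocyte and myelin genes, 10 fell and 1 rose in the control, and 7 rose and none fell in the knockdown. The medians were -0.75 and 0.53, and 20 of 30 genes had changes of opposite sign. Among the 18 members in the stricter set the medians were -0.18 in the control and 0.39 in the knockdown. On days 12 and 14, 2 of the 30 were below the level of the filter in the control, against 0 in the knockdown. Mbp, myelin basic protein, stood at 0 and -1.39 in the control and at 4.30 and 4.92 in the knockdown. Mal, a lipid raft protein of myelin, changed by -0.43 and 2.91. Sox10 changed by -1.38 in the control and 0.29 in the knockdown, and the connexin gene Gjc3 by -1.4 and 0.58. Olig2, which marks the lineage as a whole, changed by 0.05 and -0.25, and stood at 4.45 and 4.20 in the knockdown on days 12 and 14, far above the control. The list's median from day 10 to day 14 was 0.16 in the control and 0.10 in the knockdown.

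**Figure D3:**
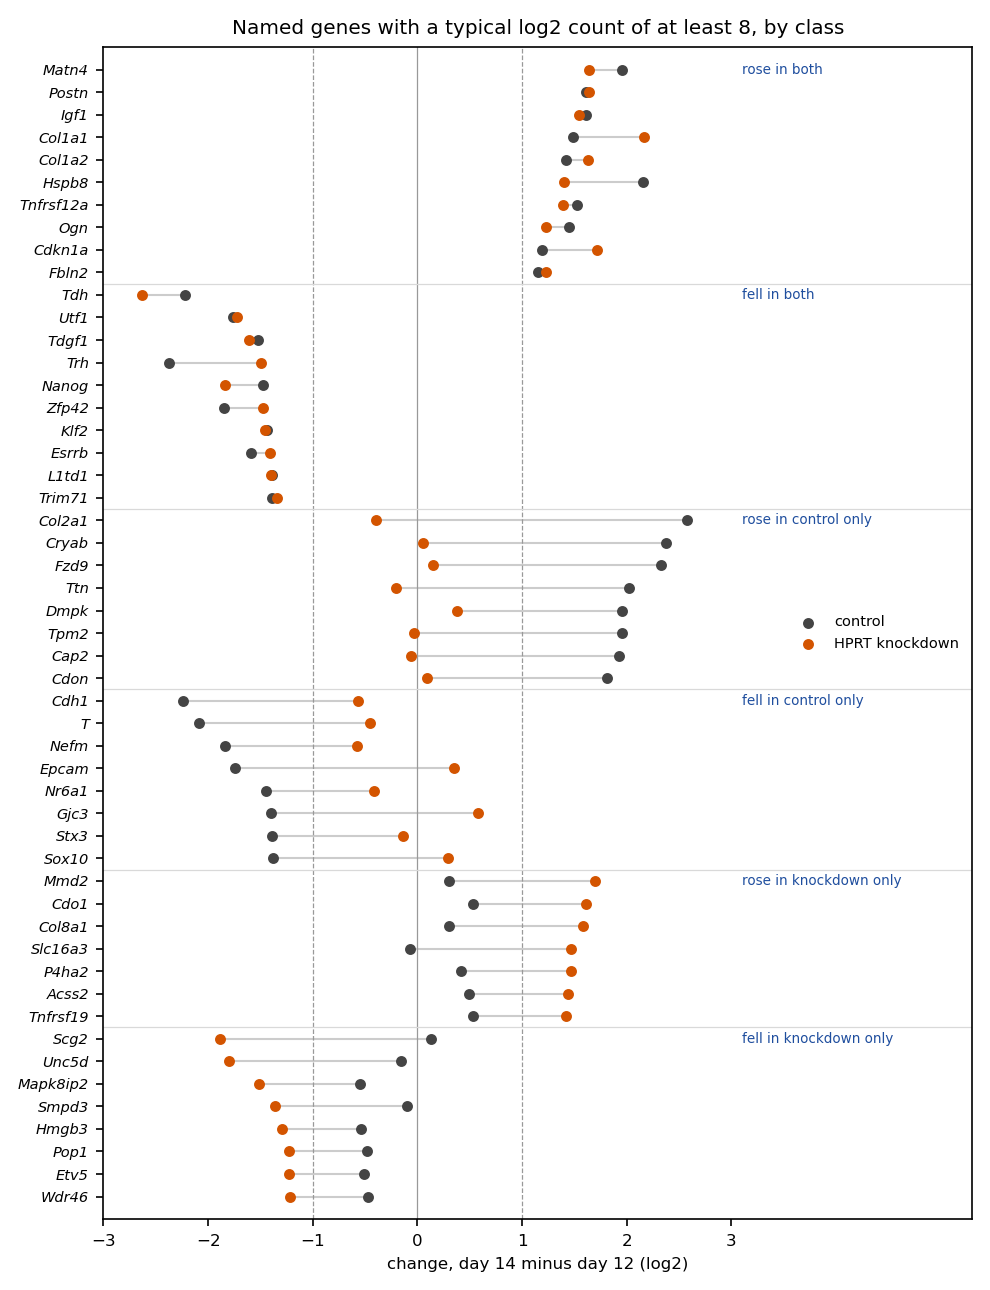
Change from day 12 to day 14 (log2, horizontal) of the leading named genes of the stricter set, in the control (dark) and the HPRT knockdown (orange), grouped by class, with dashed lines at a 2-fold change. The points of a gene lie close together for genes such as Postn, Utf1 and L1td1 and far apart for Col2a1 and Scg2.

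Dopamine genes were mixed. Of 22 dopaminergic neuron genes, 2 rose and 3 fell in the control, and 4 rose and none fell in the knockdown. Their medians were 0.01 and 0.09. Over all genes 3.75% rose and 3.15% fell in the control, and 3.23% rose and 2.62% fell in the knockdown. Only 5 of the 22 are in the stricter set. Th (tyrosine hydroxylase, the rate-limiting enzyme of dopamine synthesis; NCBIM37 chromosome 7, 150078657 to 150117033) stood at 0 and -1.73 in the control and at -2.22 and -0.80 in the knockdown. The order of the lines thus turned over, from a knockdown minus control difference of -2.22 on day 12 to 0.96 on day 14. Ddc, the next enzyme of the pathway, stood at 0 and 0.63 and at 0.99 and 2.82. Of the retinaldehyde dehydrogenases, Aldh1a1 changed by 1.36 and 0.68 and Aldh1a7 by 0.81 and 1.78. By their typical count over all days, Th and Ddc both belong to the lower range, from 16 to 256 normalized reads.

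Most neuronal genes moved less than 2-fold. Of 46 pan-neuronal genes, 2 rose and 3 fell in the control, and 1 rose and 4 fell in the knockdown, with medians of -0.13 and -0.06. Tubb3, the neuronal tubulin, changed by -0.47 and -0.54. Cplx1 (complexin, a synaptic release protein) changed by 0.30 and -1.57, and Thy1, found on neurons and on fibroblasts, by 0.01 and 1.55. Of 24 glutamate signaling genes 1 fell in the control, and 1 rose and 2 fell in the knockdown, with the metabotropic receptor Grm2 at -1.34 and -2.67 the gene that fell in both. Of 18 GABA and glycine signaling genes none changed 2-fold in the control, and 2 rose and 1 fell in the knockdown. Neural progenitor and proneural genes had 3 of 29 rising and 3 falling in the control and none in the knockdown. In the control Pax7 rose by 1.52, and Dbx1 and Neurog1 fell by 1.44 and 1.37. The knockdown minus control difference of Pax7, Dbx1 and Neurog1 on day 12 was -4.72, -5.1 and -4.17. In the knockdown 8 of the 29 were below the level of the filter on days 12 and 14, against 1 in the control.

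Genes of proliferation mostly moved by less than 2-fold, nearly all downward in the control and most of them downward in the knockdown. Of 69 mitosis genes, 68 were below 0 in the control, with a median of -0.53, and 54 in the knockdown, with a median of -0.17, while 1 fell 2-fold in the control (Cks2, at -1.10 against -0.04) and none in the knockdown. Of 53 DNA replication genes, 6 fell in the control, and 4 fell and 1 rose in the knockdown, with medians of -0.60 and -0.39. Below 0 were 51 in the control and 45 in the knockdown. Tyms, the thymidylate synthase, changed by -0.64 and -1.92, and Mcm10 by -1.15 and -0.67. The median knockdown minus control difference of the mitosis genes was -1.25 on day 12 and -0.90 on day 14.

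Respiratory chain, cytoplasmic ribosomal protein and lysosome genes held few 2-fold changes. None of 59 respiratory chain subunits changed 2-fold in either line, with medians of 0.29 and -0.01. Above 0 were 57 of them in the control and 27 in the knockdown. In each line 1 of 62 cytoplasmic ribosomal protein genes changed 2-fold, and 44 in the control and 55 in the knockdown were below 0. Of 50 lysosome genes 1 fell in the control and none changed in the knockdown. Of 24 purine synthesis and salvage genes, 2 rose in the control (Adssl1 at 1.53 and Ampd3 at 1.26, both enzymes of the adenylate branch used in muscle and blood) and 1 fell in the knockdown (Ppat, the first enzyme of the de novo pathway, at -1.02 against -0.64). Of 22 heat shock genes 2 rose in each line, and of 22 metallothionein and oxidative stress genes 1 rose in the control. Of 21 interferon-stimulated genes 2 rose in the control and 3 fell in the knockdown. Of 32 immediate early genes 2 fell in the control, and 1 rose and 1 fell in the knockdown. All 5 blood and microglia genes that passed the filter had a typical count in the lower range, with 1 falling in each line. Only 3 of 36 replication-dependent histone genes passed, too few to describe the list. These 3 rose in the control, and 1 of them, Hist1h4i, fell in the knockdown.

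**Figure D4:**
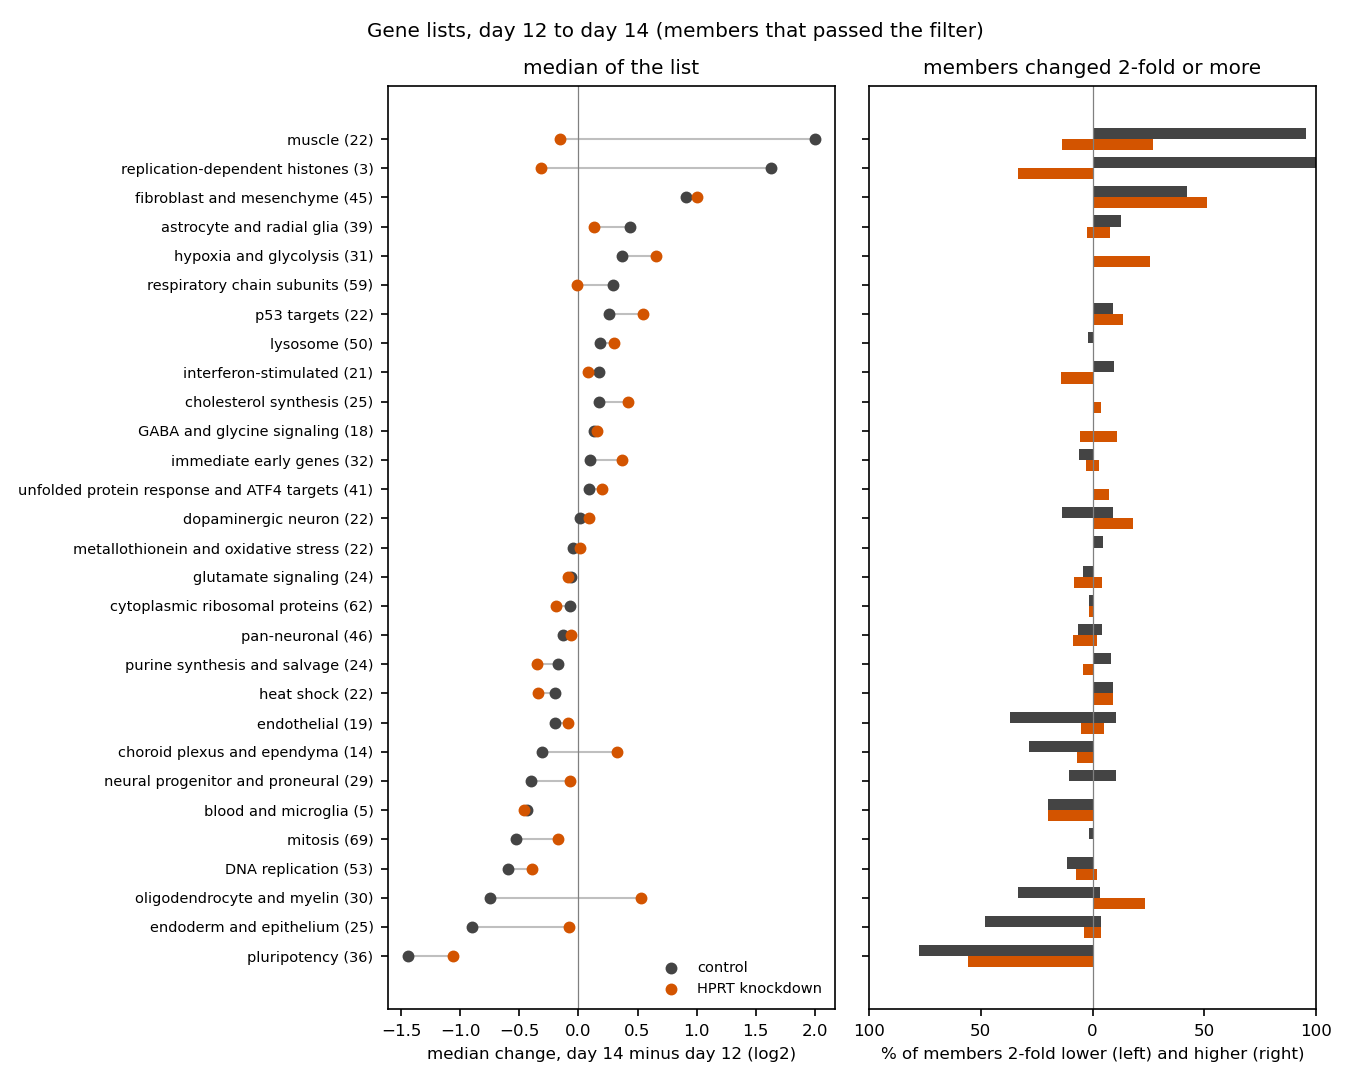
Gene lists from day 12 to day 14: the left panel gives the median change (log2) of the members that passed the filter, whose number follows the list's name, and the right panel the percentage of members 2-fold lower (left of 0) and higher (right of 0), for the control (dark) and the HPRT knockdown (orange). Pluripotency genes are lowest in both lines and fibroblast genes high in both, while muscle and myelin genes are far apart between the lines.

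Of 22 genes singled out by the study that passed the filter, 2 rose and 4 fell in the control, and 1 rose and 3 fell in the knockdown. Cxcl12, the chemokine that guides migrating precursors, changed by 1.01 and 0.29, and its receptor Cxcr4 by -0.05 and 0.18. The ligand Tgfb3 changed by 1.28 and 0.50, Tgfb2 by 0.89 and 0.62, and the receptor Tgfbr1 by -0.07 and -0.10. In the Notch pathway the ligand Jag2 changed by -0.25 and -0.07 and the receptor Notch2 by 0.20 and 0.09. The ERK kinase Mapk3 changed by 0 and 0.46. These signaling genes, Cxcl12 and Tgfb3 apart, thus changed by less than 2-fold in both lines.

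The printed promoters differ in the letters they hold. Acta1 has a TATA box and a pair of GC boxes, Col1a2 a pair of CCAAT boxes and a pair of GC boxes, Postn a CCAAT box and TTTGAA on both strands, and Pou5f1 a CCAAT box and a GC box. Windows were matched for 10554 of the 13609 genes. GGGCGG, on either strand, was in 66.5% of all of them, in 32.8% of the 61 windows of shared risers and in 62.7% of the 75 windows of shared fallers. TTTGAA was in 11.3% of all, 26.2% of shared risers and 16% of shared fallers, and TATAAA in 6.77%, 14.8% and 5.33%. Of 20 muscle gene windows 35.0% held TATAAA and 25% GGGCGG, and of 29 hypoxia and glycolysis windows 89.7% held GGGCGG. A match describes letters and not a site that is used.

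Compared with the other steps of the course, this one was of middle size in the control and small in the knockdown. With 940 genes changed 2-fold, it ranked 4 of 9 steps in the control, where the steps into and out of day 6 held ranks 1 and 2 and the step from day 10 to day 12 had the fewest, 254. In the knockdown it had the fewest of 9 steps, 795, against 1030 in the step before. The day 12 library belongs to both of these steps.

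**Figure D5:**
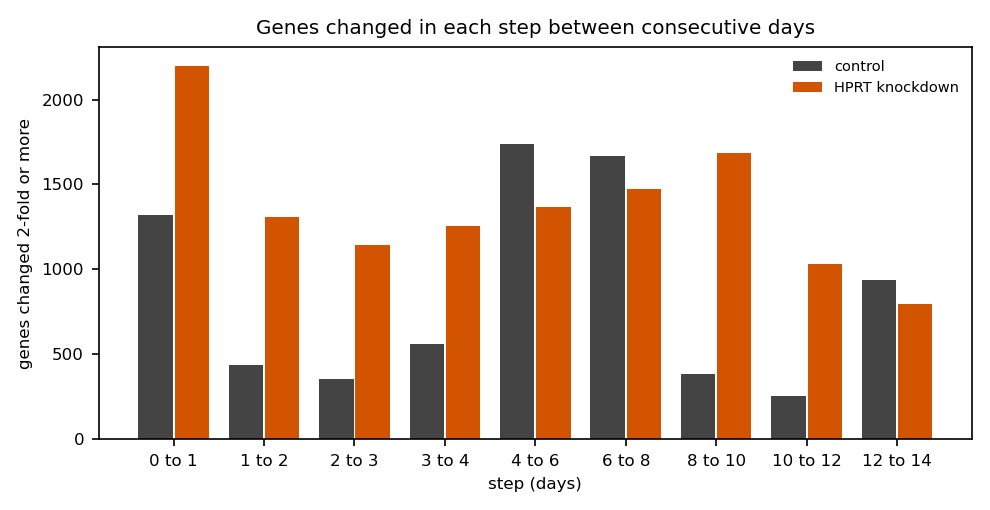
Number of genes (vertical) changed 2-fold or more in each of the 9 steps between consecutive days (horizontal) in the control (dark) and the HPRT knockdown (orange). The last step had 940 genes in the control, after 254 in the step before, and 795 in the knockdown, after 1030.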

How the data were processed

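RNA-seq libraries (TruSeq, Illumina HiSeq, 50 cycles) of the control and HPRT knockdown lines on days 12 and 14 were used, 1 per line and day, with those of day 10 and earlier for the course. Per the labels and the study's methods, reads were aligned by ELAND in CASAVA 1.8.2 to NCBI37/mm9 and gene counts were normalized by DESeq within Avadis NGS, the lane of each library not being given. Strand was not used here. The authors deposited 28 tables of 2 libraries each in log2 units, the log2 normalized count minus the mean of both libraries, with counts of 1 or less entered as log2 0. A table gives a ratio and no level. Tables were normalized separately, so values that add up several tables join separate scalings.

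The change of a line was read from its own table in Python 3.11.15 with pandas 2.3.3 and numpy 2.4.6, and figures were drawn with matplotlib 3.10.9. Of 37561 genes, 13609 passed a filter at a typical log2 count of 4, read from the rounding step of the single-precision values. The scripts were tested on simulated data. No test was run and no pseudocount could be varied. For 321 genes, 80 of them in the stricter set, tables of the same libraries differed by over 0.1.

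Members and the 30 gene lists were chosen with earlier results of these data known. Named genes were the 10 shared risers and 10 shared fallers with the largest smaller change, the 8 largest per line and direction with the other line under 1.5-fold, up to 5 per opposite combination (all at a log2 count of 8 or more, in named transcripts whose tables agreed within 0.1), up to 4 members per list with a 2-fold change, and Hprt with the genes the study singled out. Some genes these rules select are not reported here. Genes named at the 2-fold threshold are those nearest it. Gene positions are from GENCODE on NCBIM37, and promoter windows from RefSeq on GRCm38.p6.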

Additional observations from a re-analysis of the deposited data

Results flagged for a closer look

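Of the genes named, 5 rose in 1 line and fell in the other by 2-fold or more. With 1 library per line and day the difference between the lines was not tested, and no group was large enough to look for a library apart from the rest. As the knockdown change minus the control change, Mobp differed by 4.35 (-1.97 in the control and 2.37 in the knockdown) and Mag by 3.33 (-2.27 and 1.06), both myelin genes. Th differed by 3.15 (-1.73 and 1.42), and the endothelial gene Vwf by 2.90 (-1.22 and 1.68). The histone gene Hist1h4i went the other way, with a difference of -4.0 (1.84 and -2.16). By their typical count over all days, all 5 lie in the lower range, from 16 to 256 normalized reads. That range does not give their level in any of the 4 libraries.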

How the results depend on the processing

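The numbers of genes that rose in both lines, fell in both, changed in the control only, in the knockdown only and in opposite directions were 93, 106, 707, 562 and 34. At a typical log2 count of 8 they were 25, 23, 175, 139 and 1, with no filter (15939 genes) 190, 240, 1313, 1116 and 236, and at 1.5-fold 410, 371, 1575, 1536 and 205. Read through the other line, the opposite class held 64 genes. From day 10 to day 14, which leaves out the day 12 libraries, 53 fell in both and 120 went opposite ways, and 16 of the 106 shared fallers and 39 of the 93 shared risers remained. With the filter also applied within the 4 tables of days 12 and 14, chosen after seeing the data, 65 fell in both. Centring each table, requiring tables to agree within 0.1 (also added later) and a limit of 1.5-fold for the other line left each count they apply to within 1.5 times. From day 10 to day 14 some directions reversed: the medians of hypoxia genes (-0.37) and cholesterol synthesis genes (-0.79) in the knockdown, myelin genes in the control (0.16) and pluripotency genes in the knockdown (1.31), in the control Mag (1.79) and Mbp (0.54), and in the knockdown Tdh (1.54), Utf1 (1.48), Tdgf1 (1.2), Trh (0.37), Nanog (0.84), Zfp42 (1.66), Klf2 (0.78), Esrrb (1.66), L1td1 (1.49), Trim71 (0.74), Slc16a3 (-1.18), P4ha2 (-0.19), Acss2 (-0.14), Vegfa (-0.06), Bnip3 (-0.68), Insig1 (-0.19), Ddc (-0.02), Aldh1a7 (-0.39), Prdm14 (0.92) and Pou5f1 (2.00). The cause was not tested. No paired analysis was possible because each group had 1 library, and no replicate could be left out. The depth of each single library is unknown and limits genes of low count most.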

Other observations

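The following lists were put together after the values had been seen and are given as values with no test. Cartilage matrix genes moved with the fibroblast genes: 9 of 15 that passed the filter rose in the control and 7 in the knockdown, 6 of them in both, and 1 fell in the control. Acan (aggrecan, the main cartilage proteoglycan) changed by 1.87 in the control and 3.21 in the knockdown, Col9a1 by 2.77 and 2.24 and Lect1 (chondromodulin) by 1.26 and 2.80. The link protein gene Hapln1, at 2.64 and 0.64, rose in the control only, like Col2a1. The cartilage factor Sox9 changed by 0.54 and 0.27. The median of the list from day 10 to day 14 was 0.85 in the control and 0.03 in the knockdown. Over that span Acan changed by -0.23, Col9a1 by -0.07 and Lect1 by 1.55 in the knockdown.

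Ribosome biogenesis genes had 49 of 49 values below 0 in both lines, with medians of -0.47 in the control and -0.66 in the knockdown, and 12 fell 2-fold in the knockdown and none in the control. Among them were Polr1b, a subunit of RNA polymerase I, at -0.76 and -1.52, the helicase gene Ddx21 at -0.82 and -1.34, and Dkc1 (dyskerin) at -0.67 and -1.18. Clock genes had 17 of 19 values above 0 in each line: Nr1d1 (Rev-erb alpha) changed by 1.54 and 1.79 and Bhlhe40 by 1.03 and 1.42, while the core factor Arntl changed by 0.08 and 0.46. Of 19 germ line genes 14 fell in the control and 5 in the knockdown, the same 5 in both, among them Dmrt1 at -1.61 and -2.53 and Tex14 at -1.35 and -1.79. None of the 19 is in the stricter set, 9 were below the level of the filter in the knockdown table, and from day 10 to day 14 the medians were -0.82 in the control and 0.51 in the knockdown.

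Y-linked transcripts differed between libraries of a line. Eif2s3y changed by -3.92 in the control from day 10 to day 12 and by -0.22 from day 12 to day 14, and by 0.16 and -0.96 in the knockdown. Ddx3y changed by -4.90 and 0.93 in the control and by -1.13 and -0.75 in the knockdown. Both had also changed by several log2 units in earlier steps, such as Eif2s3y in the control by 4.38 into and -4.32 out of day 6.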
